A study of Homo sapiens with 12 samples.

Results

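Collagen genes are described here as the rows of the count table whose gene symbol has the form COL, a type number, A and a chain number. This rule found 44 of the 58381 genes in the table, which fall into 11 fibrillar, 6 basement membrane, 5 type VI and 10 FACIT collagens (fibril-associated collagens with interrupted triple helices) and 12 others. RNA-seq was carried out on Hs578T and MDA-MB-231, both established triple negative breast cancer cell lines, in which the hyaluronan receptor CD44 was either kept (CD44 WT) or deleted by CRISPR/Cas9 (CD44 KO). Each of the 4 groups had 3 libraries. All cells carried a doxycycline-inducible Cas9. The CD44 KO cells received guides against 2 exons of CD44, the CD44 WT cells received the transfection reagent without guides, and both were sorted as populations, not as clones, on CD29 and CD44 and kept in low serum for a day before RNA was taken. Nothing in the sources used here says that the 3 libraries of a group came from independently edited cells, so the p-values measure the spread between these libraries, which may be technical.

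CD44 itself held to the labels, at 507 ± 17.6 CPM (a gene's counts relative to the library total, scaled by TMM factors; mean ± SD, n = 3) in Hs578T CD44 WT and 27.3 ± 2.06 CPM in CD44 KO. In MDA-MB-231 it was 362 ± 1.70 and 34.2 ± 5.40 CPM. Library totals ran from 10257586 to 19725543 counts. VIM, the intermediate filament of mesenchymal cells, was at 3862 ± 131 CPM in Hs578T CD44 WT and 4896 ± 178 CPM in MDA-MB-231 CD44 WT. In the same order, ZEB1 was at 59.3 ± 1.93 and 77.5 ± 22.8 CPM and CDH2 at 143 ± 12.6 and 0.399 ± 0.280 CPM. Epithelial markers were mixed. CDH1 (E-cadherin) was below 1 CPM in both, but KRT8 was at 571 ± 26.6 and 377 ± 33.2 CPM and KRT18 at 405 ± 7.89 and 631 ± 101 CPM. KRT19 and EPCAM were at 280 ± 19.6 and 17.6 ± 4.28 CPM in MDA-MB-231 CD44 WT and below 1 CPM in Hs578T CD44 WT. KRT5 was at 1.74 ± 1.08 CPM in Hs578T CD44 WT and 0 in MDA-MB-231 CD44 WT. Among 7 fibroblast markers the summed level was 327 to 349 CPM in Hs578T CD44 WT and 376 to 390 CPM in CD44 KO, and at most 10.3 CPM in MDA-MB-231. Of these markers, FAP and LUM rose and PDGFRA fell in Hs578T CD44 KO. VIM, called alone of 3 mesenchymal markers, was higher in CD44 KO of both lines, at 5041 ± 119 CPM in Hs578T and 6609 ± 566 CPM in MDA-MB-231. In Hs578T that call was lost without CD44 WT replicate 1 or 2 or CD44 KO replicate 1 or 2. In MDA-MB-231 it was lost without CD44 WT replicate 3 or CD44 KO replicate 2. Of 3 leukocyte markers only PTPRC was tested, at 0.369 ± 0.179 CPM in Hs578T CD44 WT and 3.78 ± 0.895 CPM in CD44 KO. The untested CD3E and CD14 had lower means in CD44 KO. CD3E was at 0.520 ± 0.0956 and 0.323 ± 0.0166 CPM and CD14 at 0.347 ± 0.143 and 0.112 ± 0.131 CPM. The part of these marker shifts in the collagen results was not tested. Hs578T CD44 WT replicate 3 stood apart within its group, with a chi-square per degree of freedom of 15.1 and 9.87 against the other 2 libraries. The value between those was 4.68. MDA-MB-231 CD44 WT replicate 1 stood apart too (21.4 and 32.6, and 6.14 between the others). So did MDA-MB-231 CD44 KO replicate 1 (12.9 and 16.1, and 6.22 between the others). In this order, the sample labels of these libraries end in 9, 11 and 12. Hs578T CD44 KO replicate 1, whose label ends in 10, did not stand apart (7.45 and 6.35 against the others). The cause was not tested. Calls that a single left-out library ends are named beside the values.

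Collagens are trimers of alpha chains wound into a triple helix, made in the endoplasmic reticulum and secreted. Fibrillar collagens such as types I, III and V build the rope-like fibrils of connective tissue, type IV chains form the sheet of the basement membrane, type VI forms beaded filaments around cells, and FACITs decorate the surface of fibrils. In breast tumors collagens are made mainly by stromal fibroblasts, and the cancer cells vary in how many chains they express.

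Several collagen genes lie in pairs, and these pairs matter here because both members of a pair can be read side by side. COL4A1 and COL4A2 sit head to head on chromosome 13, COL4A3 and COL4A4 head to head on chromosome 2 with 111 bases between their annotated spans, and COL3A1 and COL5A2 lie 19149 bases apart on chromosome 2 on opposite strands. The chains of type I collagen, by contrast, are on different chromosomes, COL1A1 on chromosome 17 (50183289 to 50201632, minus strand) and COL1A2 on chromosome 7 (94394561 to 94431232, plus strand). Read pairs were counted by strand, so opposite-strand neighbours were kept apart. RefSeq promoter windows (GRCh38.p14, from 250 bases before to 50 after a start) were matched to 32 of the 44 members. Stretches between the RefSeq starts that no annotated exon covers are shown 5′ to 3′ for the pairs COL4A1-COL4A2 and COL4A3-COL4A4. The annotated spans of COL4A1 and COL4A2 overlap, so the first stretch lies within the annotated span of COL4A2. The bases just before COL12A1, the FACIT gene whose change differed most clearly between the lines, are shown too. Capitals mark the CCAAT box, the GC box (written GGGCGG) or the TATA box (written TATAAA), each searched on both strands, and no match overlapped another. The first is chr13:110307158-110307266, the second chr2:227164454-227164564, both on the plus strand, and the third chr6:75206054-75206173 on the minus strand.
COL4A1-COL4A2: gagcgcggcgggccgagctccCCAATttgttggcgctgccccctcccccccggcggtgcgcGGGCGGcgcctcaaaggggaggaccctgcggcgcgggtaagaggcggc
COL4A3-COL4A4: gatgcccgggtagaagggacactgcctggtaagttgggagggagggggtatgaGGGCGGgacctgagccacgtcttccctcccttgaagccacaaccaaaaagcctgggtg
COL12A1: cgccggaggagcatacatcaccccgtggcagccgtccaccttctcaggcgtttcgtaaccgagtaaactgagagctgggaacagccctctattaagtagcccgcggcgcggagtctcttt

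Both type IV stretches shown held 1 GC box, the COL4A1-COL4A2 stretch also held 1 CCAAT box, and the COL12A1 stretch held none of the 3 motifs. Over the 250 bases before the start, the GC box was found in 18 of the 32 collagen promoters (56.2%) and in 42.3% of all 27303 promoters. The CCAAT box was found in 9 (28.1%) against 33.0%, and the TATA box in 5 (15.6%) against 11.1%. The windows of head-to-head pairs overlap. The starts have 126 bases between them for COL4A1-COL4A2, 418 for COL4A3-COL4A4 and 379 for COL4A5-COL4A6. A box there can count for both members, and COL4A1 and COL4A2 were also among the 9. COL4A5 and COL4A6, a head-to-head pair whose stretch is not shown, were among the 9 with a CCAAT box and not among the 18 with a GC box. These matches describe the letters in the windows only.

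The first question was which collagens each line expressed. Hs578T CD44 WT had 26 of the 44 members above 1 CPM on average and MDA-MB-231 CD44 WT had 17, with 16 above it in both, 10 in Hs578T alone and 1, COL17A1, in MDA-MB-231 alone. The summed collagen level was 8210 ± 1483 CPM in Hs578T CD44 WT and 984 ± 67.8 CPM in MDA-MB-231 CD44 WT. COL1A1, the main chain of type I collagen, made up 41.6% of the Hs578T sum, and COL1A1 with COL6A3 74.1%, whereas the same pair made up 1.02% in MDA-MB-231. The test was run on genes for which 2 or more libraries exceeded 1 CPM, and 28 of the 44 members met this. Of these, 10 passed through the Hs578T libraries only, which favours higher levels in that line, 18 passed in both, and none passed through MDA-MB-231 only. The other 16 were COL2A1, COL11A1, COL11A2, COL24A1, COL4A3, COL6A5, COL6A6, COL9A1, COL19A1, COL20A1, COL22A1, COL8A2, COL10A1, COL23A1, COL25A1 and COL26A1. COL10A1 and COL11A2 had 0 counts in all 12 libraries. For COL11A2 this says little about its expression, since it lies in the MHC region of chromosome 6, where 12 of 262 genes passed the filter (4.58%) against 33.2% on the rest of the chromosome, and TUBB, a tubulin gene that cells in general use, had 4 counts there over all libraries.

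**Figure D1:**
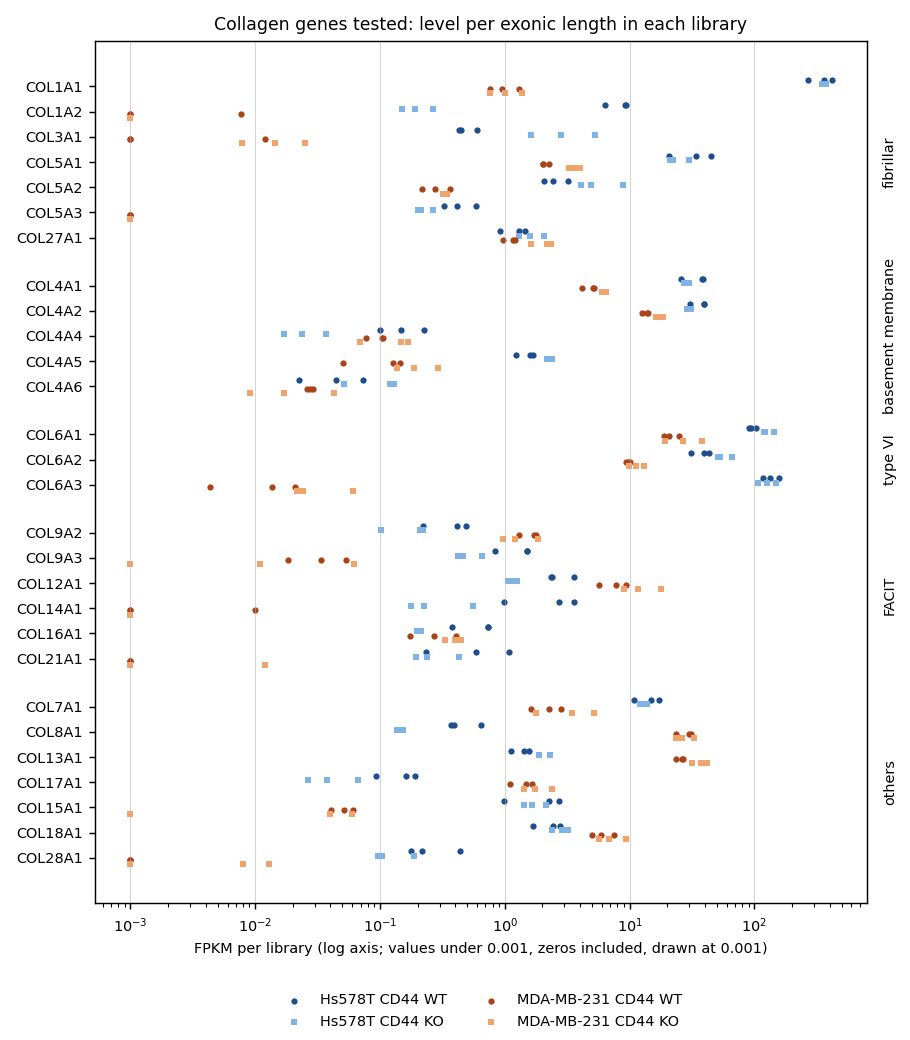
Level per exonic length (FPKM, log axis) of the 28 collagen genes tested, 1 point per library, by class, in Hs578T (blue) and MDA-MB-231 (orange), with circles for CD44 WT and squares for CD44 KO; values under 0.001 are drawn at 0.001. COL1A1 and COL6A3 lead in Hs578T, with CD44 WT means of 348 and 136 FPKM, and COL8A1 and COL13A1 lead in MDA-MB-231, with 28.2 and 25.6 FPKM.

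Compared per exonic length, as FPKM (CPM per kilobase of exon), the order of the collagens differed between the lines. In Hs578T CD44 WT, COL1A1 came first at 348 ± 75.7 FPKM, followed by the type VI chains COL6A3 (136 ± 20.2 FPKM) and COL6A1 (95.8 ± 6.32 FPKM), then COL6A2 (38.1 ± 6.19 FPKM) and COL4A2 (36.6 ± 5.26 FPKM). The last 2 of these did not differ beyond their spread. In MDA-MB-231 CD44 WT, COL8A1, a short-chain network collagen of vessel walls and the cornea, came first at 28.2 ± 4.03 FPKM and COL13A1, a transmembrane collagen of adhesion sites, second at 25.6 ± 1.65 FPKM, also within their spread. COL6A1 (21.5 ± 3.11 FPKM), COL4A2 (13.4 ± 0.775 FPKM) and COL6A2 (9.75 ± 0.319 FPKM) followed.

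Between the CD44 WT groups, 25 of the 28 tested members differed (edgeR's quasi-likelihood test, Benjamini-Hochberg adjusted p of at most 0.01), against 61.5% of all 15836 genes tested. Of the 25, 19 were higher in Hs578T (32.2% of all genes) and 6 in MDA-MB-231 (29.4% of all genes). Of the 19, 9 were members that passed the filter through Hs578T only, so their direction follows from how they passed. Among the 18 members that passed in both lines, 10 had the higher level in Hs578T and 6 the lower. The call of COL16A1, higher in Hs578T, was lost without Hs578T CD44 WT replicate 1 or 2, MDA-MB-231 CD44 WT replicate 3 or the MDA-MB-231 CD44 WT library with no certain replicate number, called unnumbered (edgeR adjusted p = 0.0142 to 0.0184). The libraries did not overlap for 24 of the 28 members, against 71.8% of all genes tested. The 6 that were higher in MDA-MB-231 were COL9A2, COL12A1, COL8A1, COL13A1, COL17A1 and COL18A1, none of them fibrillar, type IV or type VI. COL8A1 was at 222, 280 and 294 CPM in the MDA-MB-231 CD44 WT libraries and at 3.45 to 6.09 CPM in those of Hs578T, a fitted level 60.6-fold higher in MDA-MB-231 (edgeR adjusted p = 1.23e-12). COL13A1 was 18.8-fold higher in MDA-MB-231 (adjusted p = 1.34e-12) and COL12A1 2.72-fold higher (adjusted p = 4.68e-05). In the other direction COL6A3, the long chain of type VI collagen, was at 2669 ± 397 CPM in Hs578T and 0.253 ± 0.160 CPM in MDA-MB-231, although its partner chains COL6A1 and COL6A2 differed by 4.46-fold and 3.91-fold. In MDA-MB-231 CD44 WT the COL6A1 level thus exceeded that of COL6A3 by 1666-fold per length, while in Hs578T CD44 WT the ratio was 0.704. COL1A2 had 3582 counts over the Hs578T CD44 WT libraries and 1 over those of MDA-MB-231, a ratio of 3286 with a 95% counting interval from 589 to 129843 that covers counting error only. COL5A3, COL21A1 and COL28A1 had no count in MDA-MB-231 CD44 WT and were at least 35.8-fold, 50.5-fold and 21.1-fold higher in Hs578T, with 3 counts over the group taken as the floor. COL27A1, COL4A4 and COL4A6 did not pass the test between the lines.

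The main question was what changed with CD44 KO. In Hs578T, 10 of the 28 tested collagens passed the same threshold, against a background of 7.51% of all genes tested. Of the 10, 7 were lower in CD44 KO (COL1A2, COL4A4, COL9A3, COL12A1, COL14A1, COL16A1 and COL8A1; 3.86% of all genes were called lower) and 3 were higher (COL3A1, COL5A2 and COL6A2; 3.64% of all genes were called higher). Single libraries weighed on this count. It was 4, with 3 lower and 1 higher, without Hs578T CD44 KO replicate 2, 5 without CD44 KO replicate 1 or 3, and 6 without CD44 WT replicate 1 or 2. The median log2 fold change of the 28 was -0.27, against -0.002 for all genes. The summed collagen level stayed close, at 8210 ± 1483 CPM in CD44 WT and 8173 ± 723 CPM in CD44 KO (exact permutation test, two-sided, p = 1.00, where 0.1 is the smallest p that 3 against 3 libraries allow). The sum is led by COL1A1 and COL6A3, neither of which was called.

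**Figure D2:**
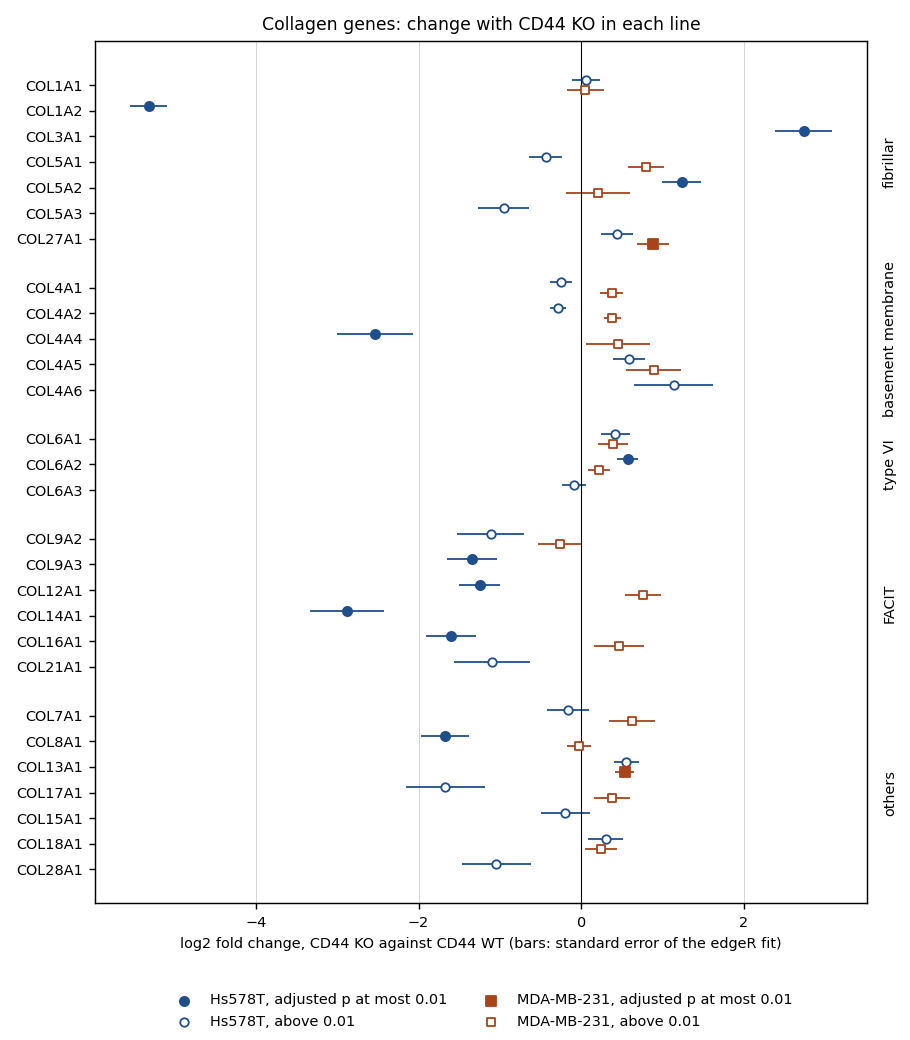
Log2 fold change of CD44 KO against CD44 WT with its standard error for the tested collagen genes, in Hs578T (circles, 28 genes) and MDA-MB-231 (squares, the 18 genes over 1 CPM in at least 2 libraries of that line), filled where the adjusted p is at most 0.01. All 6 FACITs tested in Hs578T lie left of 0, COL1A2 lies far from COL1A1, and most MDA-MB-231 points lie right of 0.

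Type I collagen is normally a trimer with COL1A1 and COL1A2 chains, and these moved apart in Hs578T. COL1A1 stood at 4088, 3544 and 2618 CPM in the 3 CD44 WT libraries and at 3549, 3714 and 3440 CPM in the 3 CD44 KO libraries. The groups overlapped, with a log2 fold change of 0.06 (SE 0.17; edgeR adjusted p = 0.868). COL1A2 stood at 103, 104 and 70.8 CPM in CD44 WT and at 1.68, 2.96 and 2.13 CPM in CD44 KO. Every CD44 KO library lay far below every CD44 WT library, and the level fell 40.0-fold (log2 fold change -5.32, SE 0.22; edgeR adjusted p = 9.88e-09). With each of the 12 libraries left out in turn the log2 fold change stayed between -5.60 and -5.15 and the call held. In bulk RNA, fewer cells that express a gene and less of its RNA per cell cannot be told apart. In CD44 WT the COL1A2 level was already low against that of COL1A1 per length, with a COL1A1 to COL1A2 ratio of 42.0 in FPKM, and in CD44 KO the ratio was 1795. Of the 6 tested genes within 500 kb of COL1A2, 1 was called higher in Hs578T CD44 KO and none lower. Of all genes tested, 3.64% were called higher and 3.86% lower. In MDA-MB-231, COL1A1 was at 9.83 ± 2.69 CPM in CD44 WT and 10.3 ± 2.96 CPM in CD44 KO, and COL1A2 had a single count in 6 libraries, so its chain ratio could not be read there.

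COL3A1 encodes the only chain of type III collagen, which co-assembles with type I in extensible tissues. It was at 2.91, 4.11 and 3.05 CPM in Hs578T CD44 WT and at 11.1, 36.1 and 19.4 CPM in CD44 KO, without overlap. Its level rose 6.66-fold (log2 fold change 2.74, SE 0.35; edgeR adjusted p = 7.19e-05), from 2.18 to 3.06 on the log2 scale with each library left out. CD44 KO replicate 2 was the highest library for COL3A1 and also for its neighbour COL5A2.

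COL5A2 encodes a chain of type V collagen, which is found inside type I fibrils and helps to start them. It was at 14.6, 17.3 and 22.9 CPM in CD44 WT and at 29.2, 63.8 and 35.0 CPM in CD44 KO and rose 2.35-fold (log2 fold change 1.23, SE 0.24; edgeR adjusted p = 0.00270). The call was lost when CD44 WT replicate 1 or 2 or CD44 KO replicate 2 was left out, where the log2 fold changes were 1.09, 1.20 and 0.82 (adjusted p = 0.0216, 0.0179 and 0.0143). COL5A1, which forms trimers with COL5A2, was at 499, 383 and 234 CPM in CD44 WT and at 238, 336 and 249 CPM in CD44 KO. These groups overlapped, and COL5A1 did not pass (log2 fold change -0.44, adjusted p = 0.165). It passed without CD44 WT replicate 3 (-0.68, adjusted p = 0.00542). COL5A3, the less common type V chain, was at 2.98 ± 0.891 CPM in CD44 WT and 1.53 ± 0.225 CPM in CD44 KO (adjusted p = 0.0653). COL27A1, a short fibrillar collagen of cartilage, was at 17.2 ± 3.89 and 23.3 ± 5.43 CPM (adjusted p = 0.162).

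**Figure D3:**
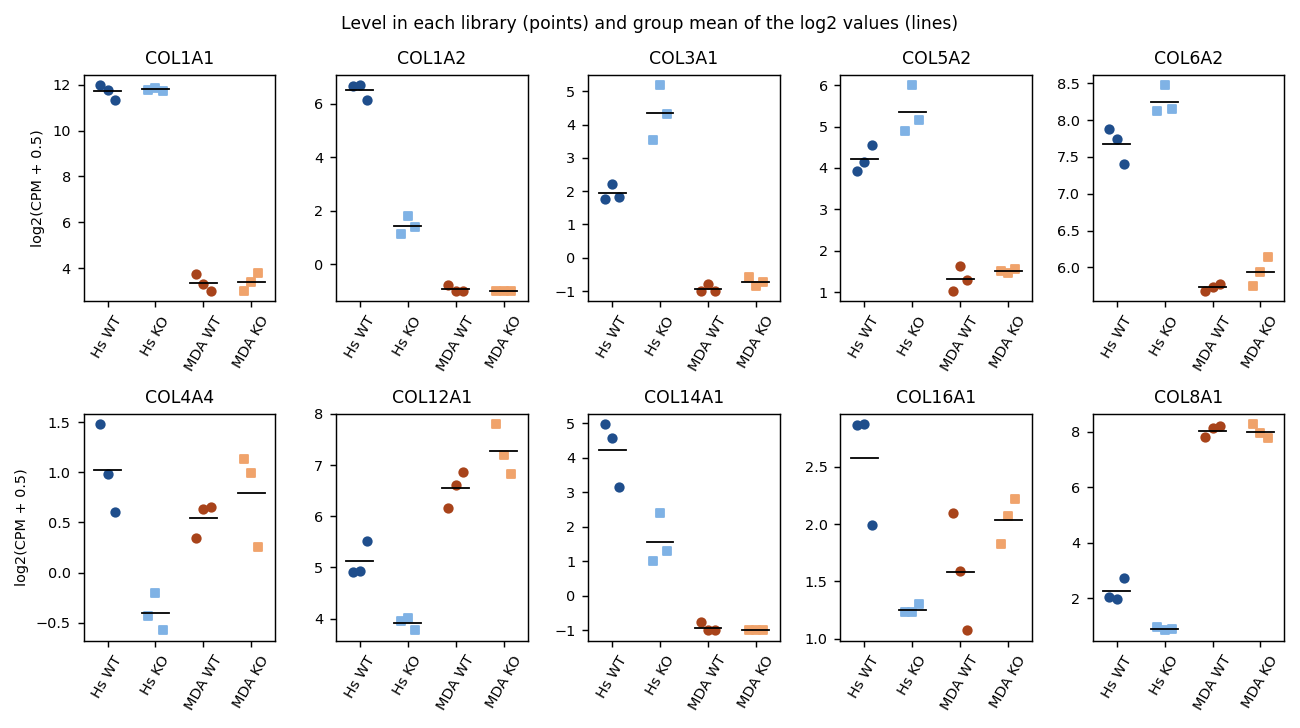
Level of 10 collagen genes as log2(CPM + 0.5) in each library (points) with the group mean of the log2 values (lines), in Hs578T (Hs) and MDA-MB-231 (MDA), CD44 WT and CD44 KO. COL1A1 overlaps between the Hs578T groups while COL1A2 drops from 70.8 or more to at most 2.96 CPM, and COL12A1 is lower in all Hs578T CD44 KO libraries.

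Of the 10 FACITs, 6 were tested and 4 were called lower in Hs578T CD44 KO, against 3 calls among 7 tested fibrillar collagens. Over all genes tested, 3.86% were called lower and 7.51% in either direction. Without any 1 of the CD44 KO libraries the FACIT count fell to 1, COL14A1, while 2 or 3 of the fibrillar collagens passed, and without CD44 WT replicate 1 or 2 both classes had 2 calls. The fitted change of all 6 tested FACITs was negative, with a median log2 fold change of -1.30 (all genes -0.002). The summed FACIT level was 69.6 to 78.2 CPM in CD44 WT and 23.2 to 28.8 CPM in CD44 KO, a ratio of 0.342 without overlap (exact permutation test, two-sided, p = 0.1, the smallest possible). In CD44 WT this sum was led by COL12A1 and COL14A1, at 34.9 and 21.0 CPM on average. For single genes, 37.3% of all genes tested did not overlap in this line. No test was run of whether the FACITs differ as a class from the other collagens.

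COL14A1, a FACIT of tendon and skin, was at 31.1, 23.5 and 8.46 CPM in Hs578T CD44 WT and at 1.52, 4.81 and 1.96 CPM in CD44 KO. It fell by 2.88 on the log2 scale (SE 0.46; edgeR adjusted p = 8.46e-04), and between -3.59 and -2.48 with each library left out, with the call held. Its lowest CD44 WT library, replicate 3, still lay above all CD44 KO libraries. COL12A1, a FACIT of tissues under tension, was at 29.5, 30.0 and 45.0 CPM in CD44 WT and at 14.9, 15.7 and 13.1 CPM in CD44 KO, without overlap. Its level fell by 1.25 on the log2 scale (SE 0.25; edgeR adjusted p = 0.00333). The call was lost without CD44 WT replicate 3 (-1.02, adjusted p = 0.0131) and without CD44 KO replicate 1, 2 or 3 (-1.26, -1.31 and -1.17, adjusted p = 0.0143, 0.0148 and 0.0237).

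COL16A1, a FACIT of skin and cartilage, was at 6.80, 6.83 and 3.47 CPM in CD44 WT and at 1.85, 1.85 and 1.96 CPM in CD44 KO. All CD44 KO libraries were below all CD44 WT libraries, and the log2 fold change was -1.60 (SE 0.31; edgeR adjusted p = 0.00234). COL9A3, a chain of the cartilage FACIT type IX, was at 7.28, 7.32 and 4.06 CPM in CD44 WT and at 2.25, 2.03 and 3.16 CPM in CD44 KO (log2 fold change -1.34, SE 0.31; edgeR adjusted p = 0.00861). The COL16A1 call was lost without CD44 WT replicate 1 or 2 or any of the CD44 KO libraries (adjusted p = 0.0114 to 0.0161), and that of COL9A3 without those same 5 libraries, MDA-MB-231 CD44 WT replicate 3 or MDA-MB-231 CD44 KO replicate 2 (adjusted p = 0.0119 to 0.0562). COL9A2 was at 1.57 ± 0.580 and 0.751 ± 0.278 CPM (adjusted p = 0.0848) and COL21A1 at 4.49 ± 2.99 and 2.02 ± 0.879 CPM (adjusted p = 0.147), and neither passed. COL19A1, a FACIT left out of the main test for its low counts, went the other way, with 1 count over the Hs578T CD44 WT libraries and 32 over those of CD44 KO, a 30.4-fold difference whose 95% counting interval runs from 5.08 to 1238. Without the filter its edgeR adjusted p was 7.53e-05.

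Among the type IV chains, COL4A1 and COL4A2 form the common basement membrane trimer and kept step with each other. COL4A1 was at 281 ± 60.7 CPM in Hs578T CD44 WT and 236 ± 11.9 CPM in CD44 KO, and COL4A2 at 318 ± 45.8 and 261 ± 8.33 CPM, with log2 fold changes of -0.25 and -0.28 that did not pass (edgeR adjusted p = 0.237 and 0.0762). Without CD44 WT replicate 3, COL4A2 passed (-0.40, adjusted p = 0.00802). Their log2 chain ratio moved by 0.048 in Hs578T and by -0.002 in MDA-MB-231, and both lines overlapped, whereas the ratio of levels per length was 0.938 in Hs578T CD44 WT and 0.358 in MDA-MB-231 CD44 WT. Within 500 kb, 3 of 6 tested neighbours of COL4A1 and 3 of 9 of COL4A2 were called lower in Hs578T CD44 KO. These overlapping windows held no call in MDA-MB-231. Of all genes tested, 3.86% were called lower in Hs578T. Whether the neighbours and the collagen pair are linked was not tested.

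COL4A3 and COL4A4 belong to the type IV trimer of kidney and lung basement membranes, and both were low in Hs578T. COL4A4 was at 2.29, 1.48 and 1.02 CPM in CD44 WT and at 0.241, 0.370 and 0.171 CPM in CD44 KO. It was called lower without overlap (log2 fold change -2.54, SE 0.47; edgeR adjusted p = 0.00190). Leaving out CD44 WT replicate 1 or CD44 KO replicate 1 or 3 ended that call (-2.17, -2.47 and -2.33, adjusted p = 0.0141, 0.0111 and 0.0132). COL4A3, across the 111-base stretch shown above, had 30 counts over the 3 Hs578T CD44 WT libraries and 0 over those of CD44 KO. It was thus at least 10.5-fold lower, with the same floor of 3 counts, and without the filter its edgeR adjusted p was 4.69e-06. In MDA-MB-231, COL4A4 was at 0.965 ± 0.168 CPM in CD44 WT and 1.29 ± 0.529 CPM in CD44 KO (adjusted p = 0.538). COL4A5 and COL4A6, another head-to-head pair, on chromosome X, had log2 fold changes of 0.59 and 1.14 in Hs578T, and neither passed (adjusted p = 0.0579 and 0.145).

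All 3 tested type VI chains were abundant in Hs578T. COL6A2 was at 234, 213 and 169 CPM in CD44 WT and at 277, 356 and 283 CPM in CD44 KO. It rose 1.49-fold without overlap (log2 fold change 0.57, SE 0.13; edgeR adjusted p = 0.00727). This call was lost without CD44 WT replicate 2 or 3, any of the CD44 KO libraries, MDA-MB-231 CD44 WT replicate 3 or MDA-MB-231 CD44 KO replicate 2 (adjusted p = 0.0114 to 0.0509). COL6A1 was at 549, 504 and 482 CPM in CD44 WT and at 638, 765 and 647 CPM in CD44 KO, also without overlap, and did not pass (log2 fold change 0.42, adjusted p = 0.139). COL6A3 was at 3083, 2631 and 2292 CPM in CD44 WT and at 2478, 2950 and 2089 CPM in CD44 KO, with overlap (log2 fold change -0.09, adjusted p = 0.757).

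Among the other collagens, COL8A1 alone was called in Hs578T. It was at 3.68, 3.45 and 6.09 CPM in CD44 WT and at 1.44, 1.29 and 1.36 CPM in CD44 KO, without overlap (log2 fold change -1.68, SE 0.29; edgeR adjusted p = 0.00114). Without CD44 KO replicate 2 the adjusted p was 0.0101. Its partner chain COL8A2 was at 0.860 ± 0.198 and 0.519 ± 0.183 CPM, below the filter. COL13A1 was at 8.06 ± 1.32 CPM in CD44 WT and 11.8 ± 1.44 CPM in CD44 KO (log2 fold change 0.56, adjusted p = 0.0218), and COL17A1, the transmembrane collagen of hemidesmosomes, at 0.956 ± 0.329 and 0.281 ± 0.135 CPM (log2 fold change -1.67, adjusted p = 0.0327). COL7A1, which forms the anchoring fibrils of skin, COL15A1 and COL18A1, the basement membrane zone collagens that carry antiangiogenic fragments, and COL28A1 had adjusted p-values from 0.123 to 0.757.

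Chains of 1 trimer were then compared within each library as a log2 ratio of CPM + 0.5, in which the scaling of the library nearly cancels for chains far above 0.5 CPM but not for low ones. In Hs578T, 8 of 10 pairs had ratios that did not overlap between CD44 WT and CD44 KO, and each gives an exact permutation p of 0.1, the smallest possible. For single genes, 37.3% of all genes tested did not overlap in this line, and 15 of the 28 collagens did not. That share is for single genes, and none is given here for ratios of other gene pairs, so the 8 of 10 has no background. The pairs are also not independent. Types V and VI give several pairs each, in which 1 ratio follows from the others and 1 shifted chain moves more than 1 pair. COL1A1/COL1A2 moved most, from 5.20 ± 0.115 to 10.36 ± 0.299. COL5A1/COL5A2 fell from 4.27 ± 0.871 to 2.74 ± 0.317. COL6A1/COL6A3 rose by 0.508 and COL6A2/COL6A3 by 0.67, and COL6A1/COL6A2 moved by -0.162. COL4A1/COL4A2 and COL4A5/COL4A6 were the 2 pairs that overlapped. In MDA-MB-231, 3 of the 10 pairs did not overlap. COL5A1/COL5A2 was among them and rose by 0.575, from 3.27 ± 0.219 to 3.84 ± 0.180 (exact permutation p = 0.1), while the other 2 had a chain below 1 CPM. One was COL4A5/COL4A6, and the other was COL5A1/COL5A3, where COL5A3 had no count in any library of the line, so that this ratio followed the COL5A1 level alone. Whether the type V ratio changed differently in the lines was not tested.

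**Figure D4:**
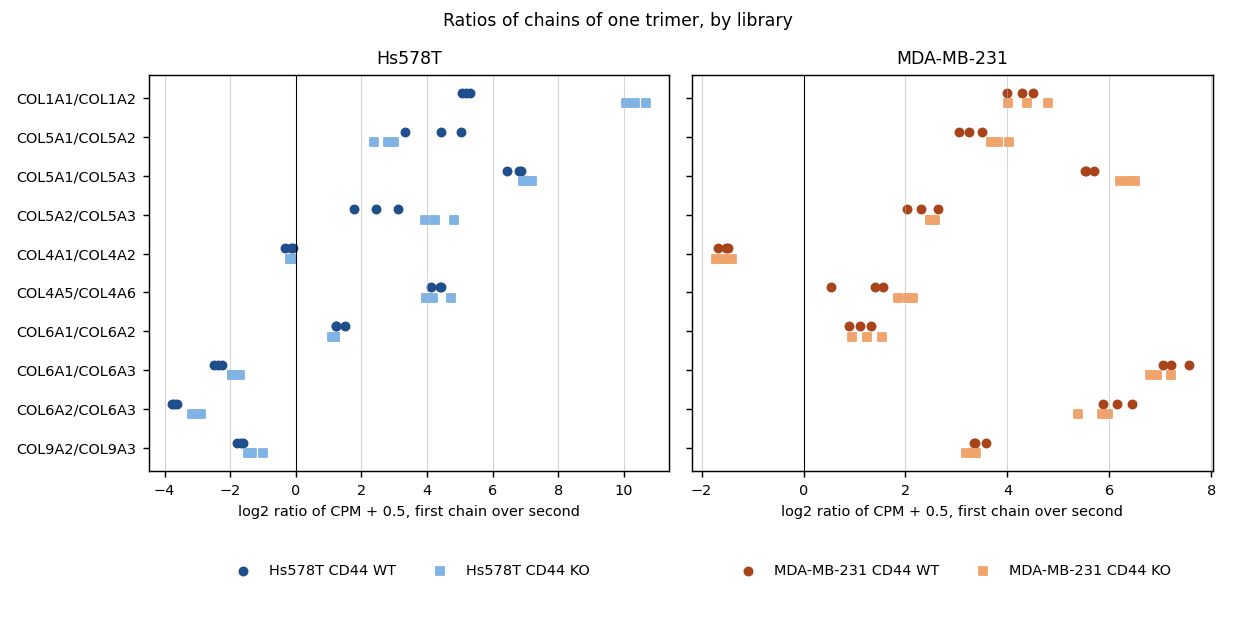
Log2 ratio of CPM + 0.5 between chains of 1 trimer in each library of Hs578T (left) and MDA-MB-231 (right), with circles for CD44 WT and squares for CD44 KO. In Hs578T COL1A1/COL1A2 moves from a mean of 5.20 to 10.36, and COL4A1/COL4A2 stays in place in both lines.

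In MDA-MB-231, 2 of the 28 tested collagens were called, both higher in CD44 KO, against a background of 4.62% of all genes tested and 1.97% called higher (2.65% lower). COL27A1 was at 16.2, 16.8 and 13.5 CPM in the CD44 WT libraries and at 22.6, 30.4 and 32.9 CPM in CD44 KO. It rose 1.84-fold (log2 fold change 0.88, SE 0.20; edgeR adjusted p = 0.00969). COL13A1 was second per length in CD44 WT of this line and first in CD44 KO. It was at 139, 157 and 156 CPM in CD44 WT and at 188, 220 and 246 CPM in CD44 KO. It rose 1.45-fold (log2 fold change 0.53, SE 0.12; edgeR adjusted p = 0.00808). Neither gene overlapped between the groups, yet both calls sat close to the threshold. The COL27A1 call was lost without Hs578T CD44 WT replicate 2, Hs578T CD44 KO replicate 1, MDA-MB-231 CD44 KO replicate 2 or 3 or any MDA-MB-231 CD44 WT library (adjusted p = 0.0142 to 0.0447). That of COL13A1 was lost without any library other than Hs578T CD44 WT replicate 1 and MDA-MB-231 CD44 KO replicate 1 (adjusted p = 0.0101 to 0.0397).

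Most other collagens of MDA-MB-231 leaned the same way without passing. Of the 18 members above 1 CPM on average in this line, 16 had a positive fitted change and 2, COL8A1 and COL9A2, a negative one, with a median log2 fold change of 0.39 against -0.01 for all genes. The 14 of these named here for other reasons had 12 positive and 2 negative signs with TMM, RLE factors, library size only and DESeq2 alike. The summed collagen level was 908 to 1038 CPM in CD44 WT and 1227 to 1319 CPM in CD44 KO, a ratio of 1.28 without overlap (exact permutation test, two-sided, p = 0.1, the smallest possible). For single genes, 25.5% of all genes tested did not overlap, and 6 of the 28 collagens did not. COL5A1 was at 22.5, 25.3 and 22.7 CPM in CD44 WT and at 36.3, 45.0 and 41.1 CPM in CD44 KO, without overlap (log2 fold change 0.80, edgeR adjusted p = 0.0326). COL4A2 was at 109, 122 and 119 CPM in CD44 WT and at 141, 163 and 153 CPM in CD44 KO, without overlap (log2 fold change 0.38, adjusted p = 0.0275). Both passed without Hs578T CD44 WT replicate 3 (adjusted p = 0.00325 and 0.00881). COL12A1 was at 70.8, 97.2 and 116 CPM in CD44 WT and at 222, 146 and 112 CPM in CD44 KO, with overlap (log2 fold change 0.76, adjusted p = 0.0427). COL8A1, first per length in CD44 WT but in CD44 KO (27.6 FPKM) after COL13A1 (37.0 FPKM) and COL6A1 (28.1 FPKM), was at 265 ± 37.9 and 260 ± 46.1 CPM (log2 fold change -0.03, adjusted p = 0.961).

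**Figure D5:**
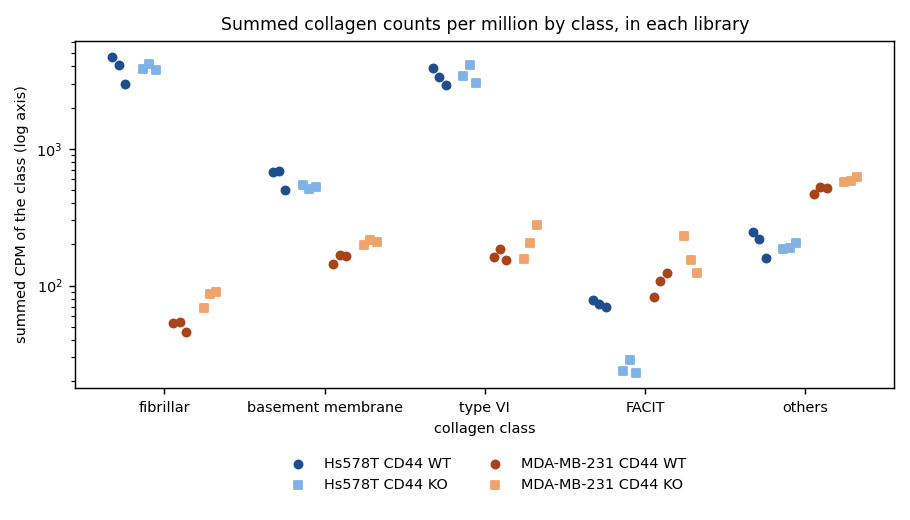
Summed CPM (log axis) of the members of each collagen class in each library, in Hs578T (blue) and MDA-MB-231 (orange), with circles for CD44 WT and squares for CD44 KO. The FACIT sum falls from 73.9 to 25.3 CPM on average in Hs578T CD44 KO, while in MDA-MB-231 it is 104 CPM in CD44 WT and 169 CPM in CD44 KO. Most of the MDA-MB-231 sum is COL12A1 (94.7 CPM in CD44 WT and 160 CPM in CD44 KO), which was not called there. Of the 6 FACITs tested, 3 have a positive and 3 a negative fitted change in MDA-MB-231.

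The CD44 KO changes of the lines were compared by the difference of the log2 fold changes, Hs578T minus MDA-MB-231. It was called for 5 of the 28 collagens, against 4.12% of all genes tested, and in all 5 the change was lower in Hs578T (1.79% of all genes were called in that direction and 2.33% in the other). With each library left out in turn the count ran from 1, COL12A1, to 6. They were COL12A1 (-2.01, SE 0.33; edgeR adjusted p = 0.00139), COL8A1 (-1.65, adjusted p = 0.00492), COL4A4 (-2.99, adjusted p = 0.00647), COL16A1 (-2.06, adjusted p = 0.00709) and COL4A2 (-0.67, adjusted p = 0.00841). COL5A1 came near, at -1.23 (adjusted p = 0.0161), and passed without Hs578T CD44 WT replicate 3 (-1.48, adjusted p = 3.66e-04), as did COL4A1 (-0.79, adjusted p = 0.00237). For COL1A2, COL3A1 and COL14A1, the most changed of the 28 tested collagens in Hs578T, the difference could not be read, because MDA-MB-231 had at most 5 counts of each over its 6 libraries.

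The genes that make, process, bind and degrade collagen were taken as 5 lists. In Hs578T the calls were 2 of 24 for synthesis, 2 of 12 for processing and cross-linking, 4 of 9 for receptors, 2 of 6 for degradation and 1 of 5 for fibril-associated proteins, against 7.51% of all genes tested, so that the synthesis list lay near the background and the others hold few genes. In MDA-MB-231 the first 4 lists had 2, 2, 1 and 1 calls, against 4.62% of all genes. Of 25 genes for collagen synthesis in the endoplasmic reticulum, 24 were tested and 2 were higher in Hs578T CD44 KO, P3H2, a prolyl 3-hydroxylase (log2 fold change 1.10, edgeR adjusted p = 4.63e-05), and COLGALT2, which glycosylates collagen hydroxylysine (1.25, adjusted p = 4.68e-04). SERPINH1, the collagen chaperone HSP47, was at 483 ± 24.2 and 591 ± 45.0 CPM there and was not called. In MDA-MB-231, COLGALT2 was lower (-0.69, adjusted p = 0.00713) and CREB3L1, a transcription factor of the secretory pathway, higher (1.04, adjusted p = 0.00436). Of 15 genes for propeptide processing and cross-linking, 12 were tested. LOXL3, a lysyl oxidase, was at 77.2 ± 20.5 CPM in Hs578T CD44 WT and 8.96 ± 1.30 CPM in CD44 KO (log2 fold change -3.10, adjusted p = 1.40e-07). TGM2, a transglutaminase, was lower in Hs578T CD44 KO (-2.34, adjusted p = 0.00192) and higher in MDA-MB-231 CD44 KO (1.20, adjusted p = 1.78e-04), and PXDN, which cross-links type IV collagen, was lower in MDA-MB-231 (-0.58, adjusted p = 0.00305).

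Of 12 collagen receptors, 9 were tested. ITGA1 and ITGA10, alpha chains of collagen-binding integrins, were higher in Hs578T CD44 KO, ITGA1 at 3.27 ± 1.42 CPM in CD44 WT and 18.6 ± 5.65 CPM in CD44 KO (log2 fold change 2.53, edgeR adjusted p = 1.20e-04) and ITGA10 at 12.5 ± 1.59 and 44.3 ± 7.82 CPM (1.83, adjusted p = 0.00495). MRC2, the endocytic collagen receptor, was higher in both lines (0.47 and 0.87, adjusted p = 0.00891 and 4.29e-04), and ADGRG1, a receptor of type III collagen, was lower in Hs578T (-1.78, adjusted p = 0.00876), although its libraries overlapped. DDR1 had 0 counts in every library and lies in the MHC region described above. Of 9 genes for collagen degradation, 6 were tested. FAP, a protease of activated fibroblasts, rose in Hs578T from 0.235 ± 0.165 to 4.67 ± 0.780 CPM (adjusted p = 2.39e-05). MMP16, a membrane-bound metalloproteinase, had 0 counts in Hs578T CD44 WT and was at least 7.05-fold higher in CD44 KO, and in MDA-MB-231 it rose from 3.79 ± 1.23 to 12.6 ± 0.368 CPM (adjusted p = 4.01e-04). Of 8 fibril-associated matrix proteins, 5 were tested and only LUM, the proteoglycan lumican, was called, at 2.48 ± 0.657 CPM in Hs578T CD44 WT and 11.2 ± 3.87 CPM in CD44 KO (log2 fold change 2.17, adjusted p = 5.27e-04).

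Several of these calls were lost with a library left out. In Hs578T, the ITGA10 call was lost without any 1 library of that line (edgeR adjusted p = 0.0102 to 0.0292), and that of TGM2 without CD44 WT replicate 1 or 2 or CD44 KO replicate 2 or 3 (0.0110 to 0.0131). The MRC2 call was lost without any 1 Hs578T library, MDA-MB-231 CD44 WT replicate 3 or MDA-MB-231 CD44 KO replicate 2 (adjusted p = 0.0107 to 0.0536). ADGRG1 was lost without any Hs578T library other than CD44 WT replicate 3, and without MDA-MB-231 CD44 WT replicate 3, the unnumbered library or MDA-MB-231 CD44 KO replicate 2 (0.0105 to 0.0634). MMP16 was lost without Hs578T CD44 WT replicate 1 or CD44 KO replicate 2 (0.0107 and 0.0110). In MDA-MB-231, the CREB3L1 call was lost without CD44 WT replicate 1, the unnumbered library or any CD44 KO library (adjusted p = 0.0115 to 0.0199), and that of PXDN without CD44 WT replicate 3, the unnumbered library or any CD44 KO library (0.0123 to 0.0186). The COLGALT2 call in MDA-MB-231 was lost without CD44 WT replicate 3, the unnumbered library, CD44 KO replicate 1 or 2 or any Hs578T CD44 KO library (0.0117 to 0.0522). The calls of P3H2, LOXL3, ITGA1, FAP and LUM in Hs578T, COLGALT2 there too, and of TGM2, MRC2 and MMP16 in MDA-MB-231 held with each of the 12 libraries left out.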

How the data were processed

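Poly(A) RNA of sorted CD44 WT and CD44 KO cells was sequenced in 12 stranded libraries. The authors aligned paired reads to GRCh38 with HISAT2 2.1.0 and assigned fragments to GENCODE 28 genes by strand with featureCounts 1.6.2, with a mapping quality of at least 10. The deposited table holds raw counts and the exonic length of each gene, without normalization.

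The test covered 15836 genes of at least 300 nt that exceeded 1 CPM in 2 or more libraries. The methods of the study word the length filter the other way round, as under 300 nt, and no collagen gene is that short. TMM factors, 4 group means, glmQLFit with the legacy fit and glmQLFTest of edgeR 4.0.16 (R 4.3.3) gave log2 fold changes, and standard errors were taken from the F statistic. Calls required an adjusted p (Benjamini-Hochberg, over all genes tested) of 0.01 or less, with any fold change. CPM used TMM-scaled library sizes and FPKM these values per kilobase of exon. Fitted values of genes near 0 counts depend on the prior count. Symbols came from a gene name table, which matched 57799 identifiers. Figures were drawn with matplotlib 3.10.9. The script was tested on simulated data.

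Genes named are the called collagens, their partner chains and the 5 highest of each CD44 WT group, and others that complete a class or a count were picked with their values known. The collagen genes, classes, pairs and lists were chosen with earlier results of these data known. One MDA-MB-231 CD44 WT library carries no certain replicate number and is called unnumbered. Alternatives were DESeq2 1.42.0, RLE factors, library size only, no filter, robust estimation, other thresholds, replicate blocks, each line alone and each library left out.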

Additional observations from a re-analysis of the deposited data

Results flagged for a closer look

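For 5 collagen genes the CD44 KO change was not the same in both lines by the edgeR test of the difference itself, given as the log2 fold change in Hs578T minus that in MDA-MB-231. COL12A1 had a difference of -2.01. All 3 Hs578T CD44 KO libraries lay below the CD44 WT libraries, while in MDA-MB-231 the groups overlapped, and the call held with each of the 12 libraries left out (-2.22 to -1.70). COL8A1 had a difference of -1.65. It changed in Hs578T, where it is scarce, and not detectably in MDA-MB-231, where it was first per length in CD44 WT and behind COL13A1 and COL6A1 in CD44 KO. This call was lost without Hs578T CD44 WT replicate 3 (-1.35, adjusted p = 0.0108) or any of the Hs578T CD44 KO libraries (adjusted p = 0.0144 to 0.0233).

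COL4A4 had a difference of -2.99, COL16A1 of -2.06 and COL4A2 of -0.67, each held by fewer libraries. The COL4A4 call remained only without Hs578T CD44 WT replicate 3 or MDA-MB-231 CD44 KO replicate 3 (adjusted p of up to 0.0231 in the others), and that of COL16A1 only without Hs578T CD44 WT replicate 3, MDA-MB-231 CD44 WT replicate 1 or MDA-MB-231 CD44 KO replicate 1 (0.0126 to 0.0228 in the others). The COL4A2 call remained only without Hs578T CD44 WT replicate 3 or MDA-MB-231 CD44 KO replicate 1 (0.0114 to 0.0297 in the others). COL4A2 passed the test in neither line by itself, with -0.28 in Hs578T and 0.38 in MDA-MB-231.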

How the results depend on the processing

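In Hs578T, 10 collagens were called, and the count lay between 8 and 12 under all alternatives other than no filter on low counts (18, of which 11 lower and 7 higher) and leaving out libraries (4 to 10). In MDA-MB-231 the 2 calls became 4 with DESeq2, 0 with library size only, 7 with no filter, 5 at an adjusted p of at most 0.05, 0 with a log2 fold change of at least 1, 1 with the line fitted alone and 0 to 3 with libraries left out. The 5 differences between the lines became 9 with no filter and 1 to 6 with libraries left out, where the 1 was COL12A1. The 25 calls between the CD44 WT groups ranged from 24 to 29. With libraries left out, 8 chain pairs of Hs578T did not overlap each time, and in MDA-MB-231 between 3 and 5. No named gene changed sign in a called comparison. The cause of these shifts was not tested.

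Samples with the same replicate number in a line had deviations correlated at -0.164 to 0.230, and 2 of 10 libraries correlated best with their own number, so these numbers do not pair the samples. With the replicate number as a block (11 libraries, without the unnumbered one) the calls were 8 in Hs578T, 0 in MDA-MB-231 and 2 for the difference. With blocks of consecutive label numbers (correlations 0.026 to 0.285, 10 of 12 libraries best with their own block) they were 10, 3 and 5. Depth limits the collagens under 1 CPM, where a few counts decide a fold change.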
